A study of Mus musculus with 19 samples.

Results

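Zinc finger genes of the Krüppel-associated box (KRAB) type lie in a few dense clusters in the mouse genome, and 3 of these clusters were examined for repressive histone marks in embryonic stem cells (ESCs). The clusters were taken by position on the NCBIM37 genome, as chromosome 2 from 174.9 to 178.0 Mb, chromosome 4 from 145.0 to 147.6 Mb and chromosome 13 from 65.2 to 68.0 Mb. They held 4250 of the 1327469 tiles of 2 kb into which the genome had been divided. Tiles with at least 1 read in the input library were kept, which left 2781 of the 1242015 kept tiles of the genome.

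KRAB zinc finger proteins bind DNA through arrays of C2H2 zinc fingers and recruit TRIM28 (KAP1) and the histone methyltransferase SETDB1, which places H3K9me3. Many of their targets are transposable elements, and their own gene clusters are known to carry H3K9me3 in stem cells. H3K9me2 is placed mainly by EHMT1 and EHMT2 (GLP and G9a), and H3K27me3 is placed by Polycomb repressive complex 2. DNMT1 copies DNA methylation to the new strand after replication.

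ChIP-seq for H3K27me3, H3K9me2 and H3K9me3 had been done on ESCs at day 4 and day 8, in control cells labelled wild type and in cells after Cre-mediated deletion of *Dnmt1* (*Dnmt1* cKO). There were 6 libraries per mark, a single library of each genotype at day 4 and a pair of each at day 8, and all were set against 1 input, of control cells. By the study's methods the cKO derives from ESCs with loxP-flanked *Dnmt1*, and the treatment of the control cells is not given in the sources used here. The labels give E14 as the strain background, whereas the methods give C57BL/6. The input held 19010249 reads in tiles and the ChIP libraries 14627174 to 26181489, apart from 1 shallow library with 5669098, replicate 1 of the cKO for H3K9me3 at day 8. Replicate 2 of the cKO for H3K9me2 at day 8 also stood apart, with cluster values nearer to the input than those of the other H3K9me2 libraries. To check the labels, the tile inside *Dnmt1* (chromosome 9, 20744001 to 20746000) that lost most reads was taken, so its values only describe. It held 49 reads over 6 control and 1 read over 6 cKO libraries at day 8, and 23 over 3 and 9 over 3 at day 4.

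The clusters were checked against gene structure. A C2H2 zinc finger gene was counted where a coding transcript encoded at least 3 C2H2 fingers. There were 37 such genes among 47 protein-coding genes in the chromosome 2 cluster, 18 of 37 in the chromosome 4 cluster and 33 of 54 in the chromosome 13 cluster. A KRAB sequence was found in 17, 18 and 19 of these zinc finger genes. The median number of fingers was 13, 11.5 and 11, and the gene with the most fingers had 30. Other genes included *Mfn2*, *Clcn6* and *Fbxo2* at the distal end of the chromosome 4 region and part of *Phactr3* at the distal end of the chromosome 2 region.

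Successive fingers are joined by a linker with the peptide TGEKP, and the DNA encoding it was used to find zinc finger arrays whether or not they were annotated. Of 7005 such linkers in the genome, 1308 (18.7%) lay in the clusters, which make up 0.32% of tiles. A linker was encoded in 8.19% of tiles of the chromosome 2 cluster, 2.92% of the chromosome 4 cluster and 8.43% of the chromosome 13 cluster, against 0.2%, 0.178% and 0.267% in the rest of these chromosomes and 0.236% of all tiles. One stretch with a pair of linkers is shown per cluster, from the tile with the most H3K9me3 in control cells among those that encode a linker and hold at least 10 input reads. Each sequence is 168 bases of NCBIM37, read 5′ to 3′ on the strand given, with the 15 bases of each linker in capitals.
Chromosome 2, in the coding sequence of *Gm14403* (chr2:177293427-177293594, plus strand): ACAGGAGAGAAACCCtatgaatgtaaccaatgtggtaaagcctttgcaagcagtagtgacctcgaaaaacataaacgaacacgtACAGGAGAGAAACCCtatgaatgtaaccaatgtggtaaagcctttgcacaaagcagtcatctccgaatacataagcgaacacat
Chromosome 4, in introns of the lincRNA genes *Gm16889* and *Gm17317*, with no annotated coding exon at these bases (chr4:146706006-146706173, plus strand): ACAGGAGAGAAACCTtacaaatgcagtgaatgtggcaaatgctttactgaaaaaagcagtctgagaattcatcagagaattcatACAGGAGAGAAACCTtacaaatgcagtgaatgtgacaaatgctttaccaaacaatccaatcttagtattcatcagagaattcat
Chromosome 13, in the coding sequence of *2410141K09Rik* (chr13:66532900-66533067, minus strand): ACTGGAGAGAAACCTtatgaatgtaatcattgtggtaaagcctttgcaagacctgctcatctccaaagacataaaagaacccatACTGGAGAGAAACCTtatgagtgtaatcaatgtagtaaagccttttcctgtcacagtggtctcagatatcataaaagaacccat
The linkers recur after 84 bases in each sequence. Of the 6 units that these linkers open, 5 encode the C2H2 pattern, and the first unit of the chromosome 2 sequence does not. The chromosome 2 and chromosome 13 sequences were identical at 131 of 168 bases (78%), and each was identical to the chromosome 4 sequence at 107 bases (63.7%). In the linkers alone, 26 to 28 of 30 bases were identical.

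Reads from near-identical copies can be placed only where the copies differ, and alignments of low mapping quality had been discarded. Kept tiles made up 37.0% of the chromosome 2 cluster, 72.0% of the chromosome 4 cluster and 90.8% of the chromosome 13 cluster, against 96.6%, 94.8% and 95% of the rest of these chromosomes. Tiles with sequence but no input read numbered 880, 268 and 129, and 96, 96 and 0 tiles were of unknown sequence. Kept tiles held a median of 4, 12 and 8 input reads, against 15 in the rest of each chromosome. The 1% of the genome's tiles with the highest input (over 29 reads) were left out of sums, and 152 of the 936 kept tiles of the chromosome 4 cluster were among them. These held 46.2% of the input reads of that cluster's kept tiles and 35.1% to 40.6% of their H3K9me3 reads. Values of genes with close copies are therefore uncertain, and 21 of the 37 zinc finger genes of the chromosome 2 cluster had no kept tile.

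The enrichment of each cluster was compared with that of the rest of its chromosome. It is given as the log2 ratio of reads in the cluster to reads in the rest of the chromosome, minus the same in the input. H3K9me3 was above the rest of the chromosome in the chromosome 2 and chromosome 4 clusters and slightly below it in the chromosome 13 cluster, whereas H3K27me3 and H3K9me2 were below it in all 3 clusters. In the chromosome 2 cluster H3K9me3 enrichment was 0.61 in the control and 0.53 in the *Dnmt1* cKO at day 4, 0.72 and 0.63 in the controls at day 8, and 0.69 and 0.47 in the cKO libraries at day 8. In the chromosome 4 cluster the values in the same order were 0.51, 0.42, 0.74, 0.51, 0.72 and 0.43. The means were 0.61 ± 0.10 (SD, n = 6), a 1.53-fold enrichment, and 0.56 ± 0.14 (SD, n = 6), a 1.47-fold enrichment. In the chromosome 13 cluster the mean was -0.20 ± 0.10 (SD, n = 6). The 3 control libraries ran from -0.14 to -0.10 and the 3 cKO libraries from -0.31 to -0.28, so that the genotypes did not overlap. How many other regions of the genome separate in this way was not counted.

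**Figure D1:**
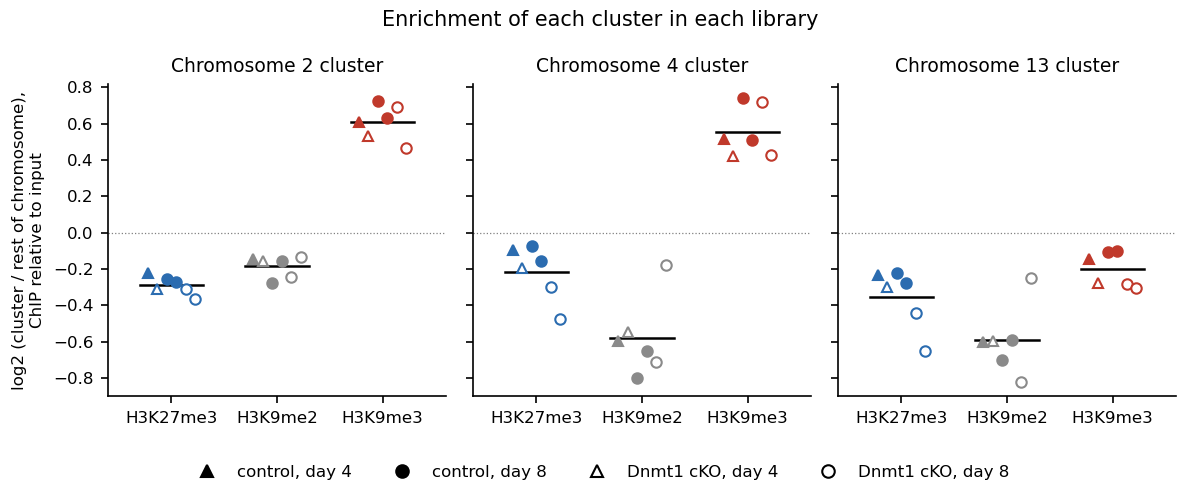
Log2 enrichment of each cluster over the rest of its chromosome, relative to input, for 6 libraries per mark; filled symbols are control, open symbols *Dnmt1* cKO, triangles day 4, circles day 8 and bars the mean of 6. H3K9me3 lies between 0.42 and 0.74 in the chromosome 2 and chromosome 4 clusters, and all other points lie below 0.

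H3K27me3 enrichment had means of -0.29 ± 0.05, -0.22 ± 0.15 and -0.35 ± 0.16 (SD, n = 6) in the chromosome 2, 4 and 13 clusters. H3K9me2 enrichment had means of -0.18 ± 0.06, -0.58 ± 0.22 and -0.59 ± 0.19 (SD, n = 6). Each of these 9 means lay on the same side of 0 in 6 of 6 libraries, which gives the smallest p-value possible in an exact two-sided sign-flip test over 6 libraries (p = 0.0312, Benjamini-Hochberg adjusted p = 0.0312 over 9 tests). The 6 libraries of a mark mix genotypes and days and share 1 input, whose counting error alone would move a value by at most 0.05. Without replicate 2 of the cKO for H3K9me2 at day 8 the H3K9me2 means were -0.19, -0.66 and -0.66, and without the shallow H3K9me3 library the H3K9me3 means were 0.59, 0.52 and -0.19 (n = 5). With all kept tiles the H3K9me3 enrichment of the chromosome 2 cluster was 0.02 (adjusted p = 0.625, exact test), and the 1% of tiles with the highest input then held 40.8% to 48.9% of the H3K9me3 reads of the rest of chromosome 2. In the chromosome 4 cluster, all kept tiles gave 0.36 for H3K9me3 and -0.47 for H3K27me3 (adjusted p = 0.0352 for each, exact test). With the mean of deposited tile values in place of summed reads, the H3K9me3 value of the chromosome 13 cluster was -0.08 (adjusted p = 0.219, exact test).

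The marks were set against each other library by library, paired by day, genotype and replicate number. The labels do not tie the replicate numbers of day 8 to a shared culture. H3K9me3 enrichment exceeded H3K27me3 enrichment by 0.90 ± 0.08 on the log2 scale in the chromosome 2 cluster, 0.77 ± 0.17 in the chromosome 4 cluster and 0.15 ± 0.11 in the chromosome 13 cluster (SD, n = 6), higher in 6 of 6 libraries each (exact sign-flip adjusted p = 0.0375 over 6 tests). It exceeded H3K9me2 enrichment by 0.79 ± 0.15 and 1.14 ± 0.33 in the chromosome 2 and chromosome 4 clusters (n = 6, exact sign-flip adjusted p = 0.0375). In the chromosome 13 cluster the difference from H3K9me2 was 0.39 ± 0.24, higher in 5 of 6 libraries (exact sign-flip adjusted p = 0.0625). The chromosome 13 difference from H3K27me3 was 0.02 among tiles with at least 5 input reads (exact adjusted p = 0.781) and 0.08 after matching GC content (exact adjusted p = 0.125).

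Single tiles were compared with input next. Among tiles with at least 10 input reads, without the 1% of highest input, a share of 10.7% (15 of 140 tiles; Wilson 95% interval 6.6% to 16.9%) of the chromosome 2 cluster had at least 2-fold more H3K9me3 than input in the pooled control libraries, against 2.76% of the rest of chromosome 2. The chromosome 4 cluster reached 13.1% (53 of 405; 10.1% to 16.7%) against 4.05%, and the chromosome 13 cluster 4.22% (25 of 592; 2.88% to 6.16%) against 4.27%. The median log2 H3K9me3 over input of these tiles was -0.06, -0.43 and -0.79 in the chromosome 2, 4 and 13 clusters. In the rest of these chromosomes it was -0.34, -0.30 and -0.22. For H3K9me2 the share was 8.57% of the chromosome 2 cluster against 3.49%, and 1 of 405 tiles of the chromosome 4 cluster (0.247%) and 2 of 592 of the chromosome 13 cluster (0.338%) reached this level, against 3.23% and 3.78% of the rest. For H3K27me3 the shares were 12.1%, 6.91% and 6.08%, against 7.98%, 7.59% and 5.82%. On chromosome 2, tiles up to 177.8 Mb held 4.91 input reads on average and those beyond it 13.8, so this filter weighs toward the distal end. At that end control log2 ChIP over input was 0.37 for H3K9me2 and 0.67 for H3K27me3, against -0.66 and -0.97 before it. Shares were not counted apart for these parts. Intervals cover counting error only.

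Marks varied within the clusters, which 100 kb windows showed. Window levels are given as log2 of the ChIP over the input share of reads, as the mean of 3 control libraries. Over the 65 windows with at least 10 kept tiles, H3K9me3 ranged from -0.55 to 1.79 in the chromosome 2 cluster (14 windows), from -1.36 to 2.25 in the chromosome 4 cluster (23 windows) and from -1.10 to 1.35 in the chromosome 13 cluster (28 windows). It was above input in 10, 17 and 13 windows. The highest windows started at 177.3 Mb on chromosome 2, at 146.8 Mb on chromosome 4 and at 66.3 Mb on chromosome 13. H3K9me2 was above input in 1 of 14 windows of the chromosome 2 cluster and in 0 of 23 and 0 of 28 windows of the others.

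**Figure D2:**
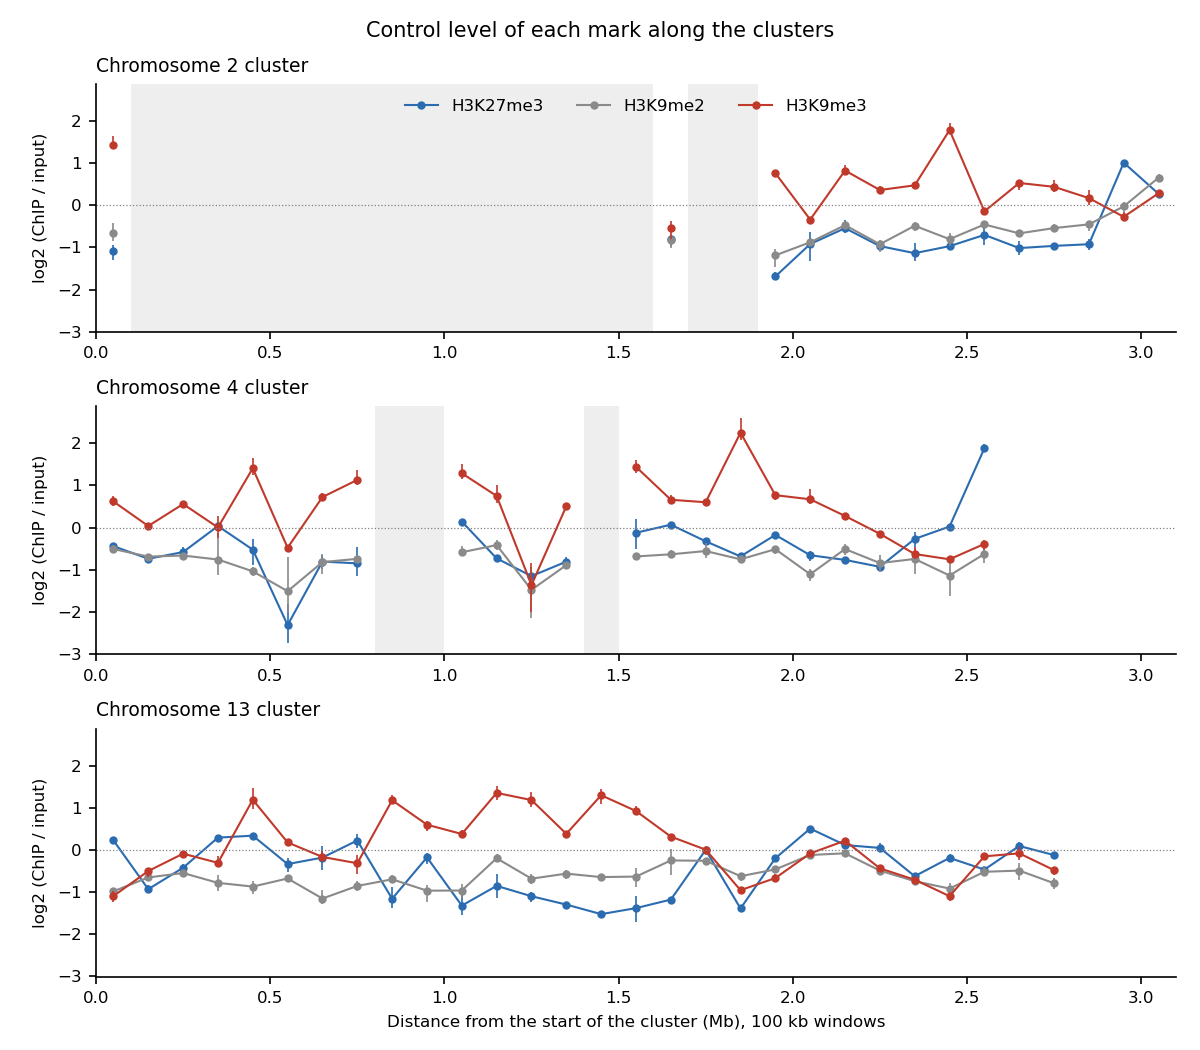
Log2 of ChIP over input in 100 kb windows along each cluster, by distance from its start; points are means of 3 control libraries, vertical lines their range and grey bands windows with fewer than 10 kept tiles. H3K9me3 peaks at 1.79, 2.25 and 1.35 inside the clusters, and H3K27me3 is highest in the last windows of the chromosome 4 region, at 1.88.

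The clusters were then divided where the profile changed, by bounds set after these values had been seen, and the parts are described without a test. On chromosome 13 a stretch from 65.5 to 67 Mb, with 4.33 input reads per tile and 339 linkers, had H3K9me3 of 0.70 ± 0.09 (SD, n = 3 controls). The stretch from 67 to 68 Mb, with 16.5 input reads per tile and 162 linkers, had -0.43 ± 0.05. That distal stretch holds the annotated genes *Zfp455*, *Zfp457*, *Zfp458*, *Zfp595* and *Zfp738*, and the stretch with more H3K9me3 holds mostly genes with provisional names, such as *2410141K09Rik*. The whole cluster thus pooled a part above and a part below input. H3K27me3 ran the other way, with -0.53 ± 0.03 in the stretch from 65.5 to 67 Mb and -0.17 ± 0.04 in the distal stretch.

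On chromosome 4 the last zinc finger gene, *Zfp933*, started just before 147.2 Mb. Up to there H3K9me3 was 0.85 ± 0.14 and H3K27me3 -0.47 ± 0.06 (SD, n = 3), and in the last 0.4 Mb, which holds *Mfn2*, *Nppa*, *Clcn6* and *Fbxo2*, H3K9me3 was -0.46 ± 0.08 and H3K27me3 0.53 ± 0.02. On chromosome 2 H3K9me3 was 0.71 ± 0.07 and H3K27me3 -0.97 ± 0.03 up to 177.8 Mb, and 0.05 ± 0.09 and 0.67 ± 0.03 beyond it, where *Zfp931* and *Phactr3* lie.

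Gene bodies were compared next, for the genes with at least 3 kept tiles. H3K9me3 was above input in 5 of 15 zinc finger genes of the chromosome 2 cluster, 13 of 16 of the chromosome 4 cluster and 3 of 28 of the chromosome 13 cluster. H3K27me3 was above input in 0, 0 and 3 of them, and H3K9me2 in 0, 0 and 0. Over genes with any kept tile, the median H3K9me3 level of zinc finger genes was -0.14 (16 genes), 0.22 (16 genes) and -0.65 (32 genes) in the chromosome 2, 4 and 13 clusters. It was -0.60 over 345 *Zfp* genes outside the clusters and -0.53 over all 23324 genes measured. The median H3K27me3 level was -1.79, -1.49 and -0.76 in the clusters, -0.81 in *Zfp* genes elsewhere and -0.23 over all genes.

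In the chromosome 4 cluster *Gm13235*, a KRAB zinc finger gene, had the most H3K9me3, with 1.82 at day 4 and 2.28 and 1.65 at day 8 in the controls, and 1.39, 2.27 and 1.5 in the *Dnmt1* cKO. *Zfp600*, a KRAB zinc finger gene of this cluster, had 0.88, 1.23 and 0.99 in the controls and 0.71, 1.24 and 0.81 in the cKO. *Gm13251* and *Gm13145*, both KRAB zinc finger genes, followed with control means of 0.80 and 0.78. Control and cKO values overlapped in *Gm13235*, *Zfp600* and *Gm13145* and did not in *Gm13251*, with 0.24 to 0.48 in the cKO and 0.72 to 0.95 in the controls. These 4 genes were picked for high control values, which by itself favours cKO values below them. Separation of all 6 libraries was not counted over all genes. *Rex2*, also in this cluster, had no kept tile in its gene body.

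The highest control means of the chromosome 2 cluster were 1.36 in *C330013J21Rik*, in which no fingers were found, and 1.11 in *Gm14443*, with 16 fingers and a KRAB sequence. *Gm14443* had 1.15, 1.17 and 1.01 in the controls and 0.75, 0.82 and 0.60 in the cKO, so that the genotypes did not overlap. Picking *Gm14443* and, below, *2410141K09Rik* for high control values by itself favours cKO values below them. *Gm14403* and *Gm14420* had 0.35 and 0.23, the latter from 22 input reads and with control values from -0.34 to 0.93. The lowest were *Gm14295* with -1.41 and *Etohi1* with -1.31, both zinc finger genes, and *Zfp931* had -0.64. The value of *Gm14295* rests on 11 input reads and 5, 2 and 5 H3K9me3 reads in the controls. In the chromosome 13 cluster *2410141K09Rik* was highest, with 0.70, 0.87 and 0.93 in the controls against 0.42, 0.20 and -0.08 in the cKO, again without overlap. *4930441O14Rik*, *Zfp455* and *A530054K11Rik* had 0.35, 0.10 and 0.07. *Rsl1*, a KRAB zinc finger gene known as a regulator of sex-limited liver proteins, had -0.68, *Zfp458* -0.63, *Zfp595* -0.83 and *Zfp738* -0.85. The lowest were *Gm10037* with -1.75 and *Zfp87* with -1.64.

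H3K27me3 was highest in *Fbxo2* and *Mad2l2*, at the distal end of the chromosome 4 region. *Fbxo2*, an F-box protein of ubiquitin ligases, had 3.25, 3.66 and 3.34 in the controls and 3.04, 2.87 and 2.41 in the cKO. *Mad2l2*, a subunit of DNA polymerase zeta, had 2.58, 2.71 and 2.44 against 2.22, 1.89 and 1.73. Each cKO value of these genes was below each control value. Both genes were picked for high control values, which by itself favours this. At day 8, by tile means, both cKO libraries were below both controls in 36.3% of all genes. Among zinc finger genes *Gm9894* (1.31, with 4 fingers) and *Zfp457* (0.97) in the chromosome 13 cluster were highest, and their control and cKO values overlapped.

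**Figure D3:**
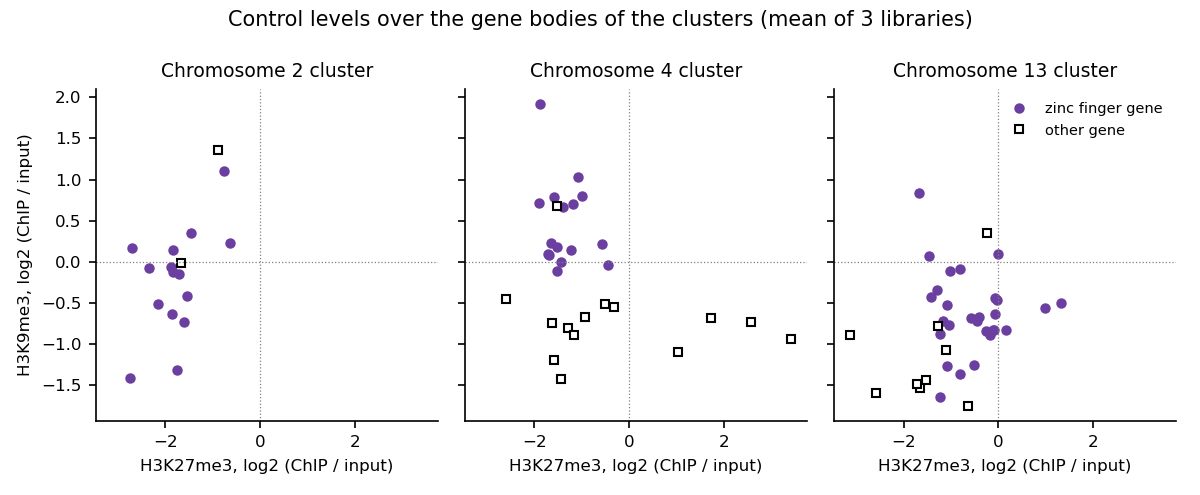
H3K9me3 against H3K27me3 over gene bodies with at least 3 kept tiles, as log2 of ChIP over input, mean of 3 control libraries; filled circles are zinc finger genes and open squares other protein-coding genes. Zinc finger genes of the chromosome 4 cluster lie at negative H3K27me3, 13 of 16 with H3K9me3 above 0, and the genes with the most H3K27me3 are not zinc finger genes.

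The tiles with the most H3K9me3 did not encode linkers. In the chromosome 4 cluster the first 3 of 557 tiles with at least 10 input reads, here with the 1% of highest input, were neighbours at 146844001 to 146846000, 146840001 to 146842000 and 146846001 to 146848000, in introns of the lincRNA gene *Gm16889*, with control H3K9me3 of 3.88, 3.70 and 3.29. In the chromosome 2 cluster the first of 147 was intergenic at 174982001 to 174984000 (2.82), 2272 bp from *Gm16355*, and the next lay 6987 and 4987 bp from *Gm14403* at 177304001 to 177306000 (2.66) and 177302001 to 177304000 (2.27). In the chromosome 13 cluster the first of 603 was intergenic at 66314001 to 66316000 (2.81), the second in an intron of *4930441O14Rik* at 67834001 to 67836000 (2.76) and the third 4263 bp from *Zfp429* at 67484001 to 67486000 (2.59). The best linker tiles, whose sequences are shown above, ranked 31 of 147 in the chromosome 2 cluster (0.60), 33 of 557 in the chromosome 4 cluster (1.53) and 8 of 603 in the chromosome 13 cluster (1.89).

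Tiles with a linker were tested against the other tiles of the same cluster, as the log2 ratio of summed reads relative to input. H3K27me3 and H3K9me2 were lower in linker tiles in all 3 clusters. H3K9me3 was lower in linker tiles of the chromosome 2 cluster and higher in those of the chromosome 4 cluster. The other tiles included the distal ends of the chromosome 2 and chromosome 4 regions. On chromosome 4, control H3K9me3 was 0.96 in linker tiles, 0.85 over the part up to 147.2 Mb and -0.46 beyond it. H3K27me3 there was -1.17, -0.47 and 0.53, and H3K9me2 -1.30, -0.66 and -0.83. On chromosome 2, split at 177.8 Mb, H3K9me3 was -0.19, 0.71 and 0.05, H3K27me3 -1.29, -0.97 and 0.67, and H3K9me2 -0.84, -0.66 and 0.37. Linker tiles were not tested against these parts alone. For H3K9me3 the 6 chromosome 4 values ran from 0.12 to 0.57, with a mean of 0.32 ± 0.19 (SD, n = 6), a 1.25-fold difference in 6 of 6 libraries. The chromosome 2 values ran from -1.09 to -0.39, with a mean of -0.78 ± 0.26 (SD, n = 6). The chromosome 13 values ran from -0.04 to 0.25, with a mean of 0.08 ± 0.13 and 3 of 6 libraries above 0 (exact sign-flip adjusted p = 0.25).

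For H3K27me3 the means were -1.43 ± 0.25, -1.21 ± 0.10 and -0.65 ± 0.01 (SD, n = 6) in the chromosome 2, 4 and 13 clusters. For H3K9me2 they were -0.71 ± 0.19, -0.61 ± 0.11 and -0.29 ± 0.09 (SD, n = 6). These 6 and the H3K9me3 means of the chromosome 2 and chromosome 4 clusters passed the exact two-sided sign-flip test (adjusted p = 0.0352 over 9 tests, 6 of 6 libraries on 1 side). Linker tiles held 235, 282 and 1167 input reads, whose counting error would move the values by up to 0.20, 0.18 and 0.09. With other tiles matched for GC content, the H3K27me3 values shrank to -0.73, -0.38 and -0.55 and the chromosome 2 H3K9me2 value to -0.12 (exact adjusted p = 0.0625). Under the same matching the H3K9me3 values of the chromosome 4 and chromosome 13 clusters became 0.82 and 0.30, and both then passed (exact adjusted p = 0.0352).

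**Figure D4:**
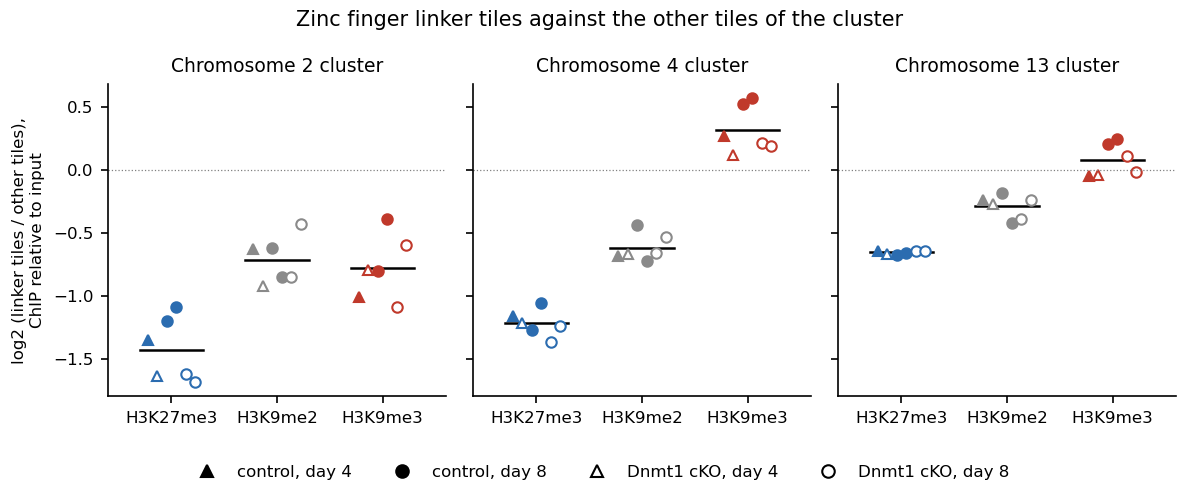
Log2 ratio of reads in linker tiles to reads in the other tiles of the cluster, relative to input, for 6 libraries per mark; filled symbols are control, open symbols *Dnmt1* cKO, triangles day 4, circles day 8 and bars the mean of 6. H3K27me3 lies between -1.68 and -0.64 throughout, and H3K9me3 of the chromosome 4 cluster lies above 0 in 6 of 6 libraries.

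Classes of tiles within the clusters are given as values, mean log2 ChIP over input of the controls. Intergenic tiles had H3K9me3 of 0.76, 0.81 and 0.11 in the chromosome 2, 4 and 13 clusters. Tiles of zinc finger gene bodies without a linker had 0.19, 0.57 and -0.46, linker tiles -0.19, 0.96 and -0.01, and tiles at zinc finger gene starts -0.88, 0.17 and -0.87. The order of the classes thus differed between clusters. H3K27me3 of gene start tiles was -1.91, -1.40 and -0.42.

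The loss of *Dnmt1* was then examined at day 8, as RPM, reads of the cluster on a per-million-reads scale. H3K27me3 values were lower in the *Dnmt1* cKO in all 3 clusters, without overlap between the genotypes, but these differences did not pass the test. How many features of the genome separated in this way was not counted. Of 100 kb windows in the genome, measured by tile means, 20.1% had both cKO libraries below both controls. In the chromosome 4 cluster they were 432.36 and 408.72 RPM in the controls and 369.42 and 325.17 in the cKO. In the chromosome 13 cluster they were 583.59 and 556.91 against 502.26 and 430.32, and in the chromosome 2 cluster 174.78 and 172.06 against 162.76 and 154.44. The log2 changes were -0.28 ± 0.08, -0.29 ± 0.09 and -0.13 ± 0.05 (SE, 2 against 2; limma adjusted p = 0.601 for each). Unadjusted p-values from limma were 0.0233, 0.0276 and 0.0633. Among 934 features tested, the clusters and 2.8 Mb windows of the rest of the genome, the change was lower than in the chromosome 4 cluster in 14, lower than in the chromosome 13 cluster in 9 and lower than in the chromosome 2 cluster in 99, around a median of 0.02. No feature passed the adjusted threshold of 0.05 for this mark (0.0%, limma), and 67 had an unadjusted p under 0.05. With 1 library left out in turn, the chromosome 4 and chromosome 13 changes were largest without replicate 1 of the cKO, at -0.37 and -0.41. Among these fits both clusters passed only in that one, which leaves 1 cKO library, as did other features of the genome.

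H3K9me3 fell in the chromosome 13 cluster, where the controls had 626.33 and 627.56 RPM and the cKO 567.55 and 563.75. The change was -0.15 ± 0.045 (SE; limma adjusted p = 0.0183), a change of -9.78%. Since 52.4% of the 934 features passed for H3K9me3 and 247 fell further, this call was no rarer than elsewhere in the genome. It missed the threshold with each of the 4 libraries left out in turn (limma adjusted p of 0.0687 to 0.12) and was -0.04 with the mean of tile values (adjusted p = 0.867). In the chromosome 2 cluster the values were 282.56 and 265.66 against 276.15 and 241.53, a change of -0.09 ± 0.06, and in the chromosome 4 cluster 685.23 and 588.73 against 674.62 and 551.21, a change of -0.06 ± 0.09 (limma adjusted p = 0.281 and 0.6). Control and cKO values overlapped in both.

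H3K9me2 passed the test in the chromosome 4 cluster, with 244.01 and 273.33 RPM in the controls and 263.3 and 386.07 in the cKO, a change of 0.30 ± 0.10 (SE; limma adjusted p = 0.0424). The groups overlapped. Without replicate 2 of the cKO, whose values lay nearer to the input, the change was 0.03, and without control replicate 1 or 2 it was 0.22 or 0.39 (limma adjusted p = 0.948, 0.999 and 0.165). Of all features 6.53% passed for H3K9me2. The differences in the chromosome 2 and chromosome 13 clusters were 0.05 ± 0.10 and 0.11 ± 0.10 (limma adjusted p = 0.845 and 0.574), and the latter was 0.38 without replicate 1 of the cKO (adjusted p = 0.0204) and -0.15 without replicate 2 (adjusted p = 0.79).

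**Figure D5:**
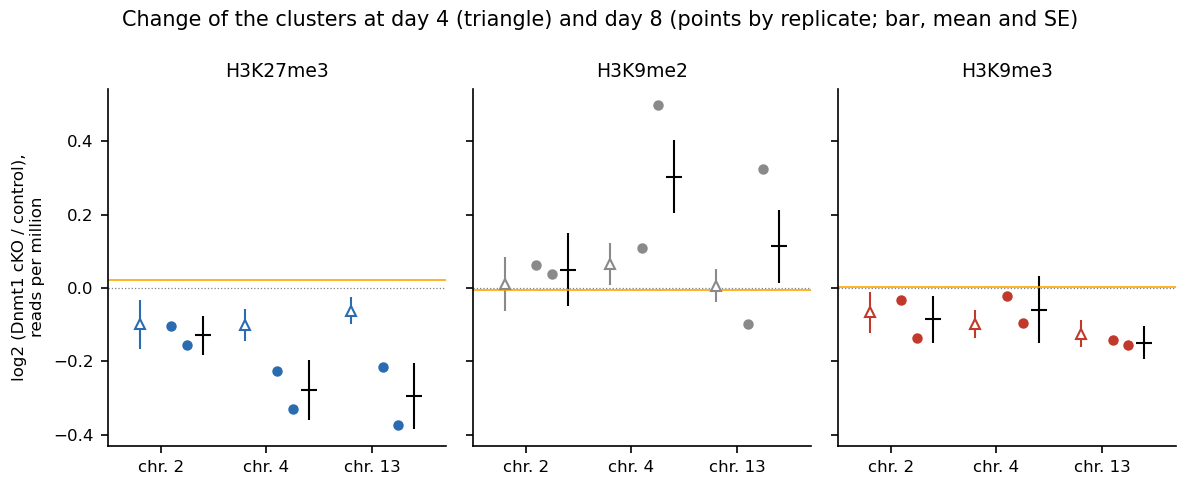
Log2 ratio of RPM, *Dnmt1* cKO over control; triangles are day 4 with an exact 95% counting interval, points the day 8 libraries of equal replicate number and bars the day 8 mean with its SE. The orange line is the median day 8 change of 934 features, 0.02 for H3K27me3. The H3K27me3 points of all 3 clusters lie below it. For H3K9me2 the SE is shared over features and is the same in all 3 clusters.

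At day 4 there was 1 library per group and no replicate check, and the intervals cover counting error only. The H3K27me3 difference, cKO minus control, was -0.10 (95% interval -0.17 to -0.03), -0.10 (-0.14 to -0.06) and -0.06 (-0.10 to -0.02) on the log2 scale in the chromosome 2, 4 and 13 clusters. For H3K9me3 it was -0.07 (-0.12 to -0.01), -0.10 (-0.14 to -0.06) and -0.12 (-0.16 to -0.09). For H3K9me2 it was 0.01 (-0.06 to 0.09), 0.06 (0.01 to 0.12) and 0.01 (-0.04 to 0.05).

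Within the clusters, 100 kb windows were tested for the day 8 change on the mean of deposited tile values. For H3K27me3 0 of 65 cluster windows passed (0.0% of 25459 windows in the genome, limma), and 27 had an unadjusted p under 0.05, against 2823 of 25459. Among fits with 1 library left out, cluster windows passed only without replicate 1 of the cKO, where other windows of the genome passed too. That fit leaves 1 cKO library, so its calls are not read as a result. Both cKO libraries were below both controls in 8 of 14 windows of the chromosome 2 cluster, 15 of 23 of the chromosome 4 cluster and 21 of 28 of the chromosome 13 cluster, against 20.1% of windows in the genome. They were above both controls in none of the 65, against 23.9%. The median change was -0.19, -0.27 and -0.34, against 0.06 over the genome. The deepest was at 146.9 to 147 Mb of chromosome 4, where 362 and 346 reads in the controls stood against 245 and 241 in the cKO (-0.66 ± 0.14, limma adjusted p = 0.314). On chromosome 13 the deepest, at 67 to 67.1 Mb over *Uqcrb* and *Ptdss1*, was -0.62 ± 0.15, and on chromosome 2 the deepest, at 177.5 to 177.6 Mb, was -0.49 ± 0.14 (limma adjusted p = 0.314 and 0.316).

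For H3K9me3 1 of 65 windows passed, against 8.58% of windows in the genome. It lay at 145.7 to 145.8 Mb of chromosome 4, over the KRAB zinc finger gene *Gm13251*, with 595 and 491 reads in the controls and 107 and 330 in the cKO, the first cKO library being the shallow one. Its change was -0.47 ± 0.14 (limma adjusted p = 0.0469), and -0.74 and -0.58 from summed reads. No cluster window passed without control replicate 1 or 2. Without the shallow library 11 passed, all lower, beside 5101 of 25459 in the genome. Without replicate 2 of the cKO 34 passed, 24 higher and 10 lower, beside 8852 in the genome. Both cKO libraries were below both controls in 1, 7 and 4 windows of the chromosome 2, 4 and 13 clusters (33.6% over the genome) and above them in 0, 1 and 1 (22.3%). The largest rises differed between the 2 ways of summing, as at 65.9 to 66 Mb of chromosome 13, where the mean of tile values gave 1.15 and 0.01 and summed reads gave -0.29 and -0.12, from 46 and 66 reads in the controls and 11 and 61 in the cKO. At 147 to 147.1 Mb of chromosome 4 they gave 0.47 and 0.53 against 0.04 and 0.015. A tile without reads is listed at 0.9 of a read, which is a higher log2 value in a shallow library.

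For H3K9me2 0 of 65 windows passed (0.0% over the genome, limma), and 0 had an unadjusted p under 0.05. Without replicate 1 of the cKO 22 passed, all higher, beside 5159 of 25459 in the genome, of which 5043 were higher. Both cKO libraries were above both controls in 1, 3 and 5 windows (23.8%) and below them in 1, 0 and 1 (25.3%). The largest rise, 0.77 ± 0.32 at 147.3 to 147.4 Mb of chromosome 4 (limma adjusted p = 0.516), was over *Nppb*, *Nppa* and *Clcn6*, outside the zinc finger genes.

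No gene body passed at day 8. Of 123 cluster genes with a kept tile, protein-coding and lincRNA, 0 passed for each mark (0.0% of 23324 genes, limma), and 30, 2 and 12 had an unadjusted p under 0.05 for H3K27me3, H3K9me2 and H3K9me3, against 4430, 823 and 2036 of the 23324. For H3K27me3 both cKO libraries were below both controls in 6 of 16, 12 of 16 and 16 of 32 zinc finger genes of the chromosome 2, 4 and 13 clusters, against 36.3% of all genes, and above in 0, 0 and 1 (18.7%). The share in *Zfp* genes outside the clusters was 49.9%. The median change was -0.37, -0.52 and -0.31 in the clusters, -0.30 in *Zfp* genes elsewhere and -0.11 over all genes. The difference was -0.96 in *Zfp595*, -0.57 in *Zfp600*, -0.52 in *Rsl1*, -0.47 in *Zfp931* and -0.41 in the longer of the annotated *Zfp738* genes, none past the test.

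For H3K9me3 both cKO libraries were below both controls in 2, 5 and 9 zinc finger genes (19.6% of all genes) and above them in 3, 0 and 0 (21.9%), with medians of 0.20, -0.07 and -0.19 against 0.00 over all genes. These gene values are means of tile values, in which an empty tile counts higher in the shallow library. In summed reads, chromosome 2 tiles of zinc finger gene bodies without a linker differed by -0.07 and -0.46. Linker tiles there differed by -0.30 and -0.33, and tiles at zinc finger gene starts by 0.21 and 0.23. For H3K9me2 the counts below were 0, 0 and 0 (7.29%) and those above 4, 1 and 6 (34.1%), with medians of 0.15, 0.14 and 0.25 against 0.35 over all genes. The largest changes of single genes rested on few reads. For H3K27me3 *Gm14409* had 4 and 6 reads in the controls against 0 and 2 in the cKO, and *Gm13151* 12 and 3 against 3 and 1. *Uqcrb*, a subunit of respiratory complex III, had 33 and 27 against 16 and 16, a change of -1.03. *Nppa*, which encodes atrial natriuretic peptide, had the highest positive difference of the chromosome 4 region, with 18 and 33 reads against 40 and 54 (0.84, limma adjusted p = 0.261), and *Zfp429* that of the chromosome 13 cluster, with 37 and 53 against 61 and 70 (0.51, limma adjusted p = 0.261).

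For H3K9me3 the largest falls were in *Gm10323* (27 and 19 reads against 4 and 10), *Gm13151* (27 and 26 against 2 and 20) and *Gm14412* (243 and 317 against 51 and 192), and the largest rises in *Nppa* (18 and 15 against 8 and 44) and *BC048507* (4 and 2 against 3 and 5). These reads are not scaled to depth, and the first cKO library is the shallow one. Scaled to depth, the falls were -0.88 and -0.90, -1.73 and -0.38, and -0.51 and -0.73 on the log2 scale, in that order. The rises were then 0.60 and 1.51, and 1.36 and 1.13. For H3K9me2 the largest rises were in *BC048507* (1 and 2 reads against 2 and 11), *Fbxo2* (8 and 5 against 11 and 34) and *Gm14418* (4 and 4 against 7 and 18). Other picks by mean tile values are given no direction, because their summed reads, scaled to depth, did not move 1 way in both comparisons or were 0 in all libraries of one. For H3K9me2 these were *Gm10324* (2 and 0 reads against 0 and 1) and *Gm14399* (9 and 4 against 4 and 11), and for H3K9me3 *Gm14408* (0 and 0 against 0 and 2). The limma adjusted p-values of these genes lay above the threshold of 0.05. Of single tiles, 0 of 2781 passed for each mark (0.0% of 1242015 tiles, limma), and 407, 240 and 234 had an unadjusted p under 0.05 for H3K27me3, H3K9me2 and H3K9me3, against 95402, 70766 and 78809 in the genome.

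The genes whose products act with KRAB zinc finger proteins were looked at outside the clusters, from a list of 19 names that included *Trim28*, *Setdb1*, *Atf7ip*, *Uhrf1*, *Cbx5*, *Ehmt2* and *Dnmt1*, matched by 20 annotated genes. 0 of 20 passed in either direction for any mark (limma), and 5, 0 and 0 had an unadjusted p under 0.05, beside the 4430, 823 and 2036 of 23324 genes given above. Their median H3K9me3 level was -0.88 and their median H3K27me3 level -1.57. Their median H3K27me3 change was -0.41, with both cKO libraries below both controls in 13 of 20 (36.3% of all genes), and their median H3K9me3 change -0.15.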

How the data were processed

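ChIP-seq tiles of 18 ChIP libraries and 1 input were used. Per the labels and methods, the authors trimmed reads with Trim Galore, aligned them with Bowtie2 2.2.9 to NCBIM37 and discarded mapping qualities under 20. The deposited values are log2 observed over expected reads per 2 kb tile (the methods state 1 kb), without input subtraction. Whole reads were recovered from them for 100% of values (within 0.01), an empty tile being written as 0.9 read. Samples were grouped by their labels. The series describes day 8 replicates as biological, the methods as a single measurement, so p-values measure the spread between these libraries. In limma this spread is pooled over features, for H3K9me2 cluster sums fully, so that it is not the spread of 1 cluster.

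Tiles with at least 1 input read were kept, and sums left out the 1% of tiles with the highest input. Enrichment was tested by exact sign-flip over 6 libraries, day 8 changes by limma 3.58.1 (R 4.3.3; lmFit, eBayes, Benjamini-Hochberg over all features), checked on simulated data. Cluster sums entered limma as log2 RPM, windows (at least 10 kept tiles), genes and tiles as mean deposited values. Levels added 0.5 read. Fingers were matched as C2H2 patterns in gencode vM1 transcripts, KRAB by a core pattern. Two-sided tests were used throughout.

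Genes named were, per cluster, the 4 highest and 2 lowest in H3K9me3 and the 2 highest in H3K27me3 (at least 3 kept tiles), those with the largest fall and rise per mark in both day 8 comparisons of equal replicate number, and a short list of *Zfp* genes, of which *Zfp729a* and *Zfp729b* were not annotated. Tiles named were the 3 highest in H3K9me3, windows those of largest change. Stretches and tile classes were set after values were seen, as was the count of libraries without overlap. Members and lists were chosen with earlier results of these data known. Alternatives were other tile sets, tile means, GC matching or correction, centring, a trend, a replicate block and leaving out libraries.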

Additional observations from a re-analysis of the deposited data

How the results depend on the processing

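Results were recomputed with all kept tiles, tile means, tiles with at least 5 input reads, GC matching or correction, and, as an alternative added after the data were seen, all tiles with sequence whatever their input. No enrichment over the rest of the chromosome changed sign. H3K9me3 minus H3K9me2 was 0.12 in the chromosome 2 cluster with all kept tiles, and enrichment of H3K9me3 there 0.0181. With tile means, the chromosome 13 values were -0.0801 for H3K9me3 enrichment, 0.50 for H3K9me3 minus H3K9me2 and 0.30 for H3K9me3 in linker tiles. With at least 5 input reads they were 0.0166 for H3K9me3 minus H3K27me3 and -0.0248 for H3K9me3 in linker tiles, and with GC matching 0.0842 and 0.30, with -0.12 for H3K9me2 in chromosome 2 linker tiles.

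The correlation of the deviations of same-numbered day 8 libraries was 0.594, 0.454 and 0.164 for H3K27me3, H3K9me2 and H3K9me3, over 2 numbers that the labels do not tie to a shared culture. With the replicate block, the H3K27me3 changes of the chromosome 2, 4 and 13 clusters (-0.13, -0.28 and -0.29) passed (limma adjusted p = 0.0029, 1.79e-11 and 1.25e-12), as did 396 of all 934 features. Of cluster windows 37 passed for H3K27me3, all lower, beside 4888 of 25459 in the genome, and 8 for H3K9me3, 7 higher and 1 lower, beside 4755. The block changed no other cluster call. Leaving out 1 library gave -0.17 to -0.0914, -0.37 to -0.1864 and -0.41 to -0.18 for these, with 0 to 31 windows. The chromosome 4 and 13 changes were largest without cKO replicate 1, at -0.37 and -0.41. Among these fits they passed only in that one, which leaves 1 cKO library.

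The H3K9me2 change of the chromosome 4 cluster (0.30) missed the threshold with a trend (0.30), all kept tiles (0.23), tile means (0.28), relative to the rest of the chromosome (0.28) and with GC correction (0.26), and spanned 0.0279 to 0.58 without 1 library. That of the chromosome 2 cluster was -0.0088 with GC correction and -0.0212 to 0.12 without 1 library, and that of the chromosome 13 cluster -0.15 to 0.38, with 0 to 22 windows. The H3K9me3 change of the chromosome 13 cluster missed it with a trend (-0.15) and tile means (-0.0404), and spanned -0.15 to -0.14 without 1 library. That of the chromosome 2 cluster was 0.12 with tile means and -0.18 to 0.0114 without 1 library, and that of the chromosome 4 cluster -0.20 to 0.087. H3K9me3 windows called numbered 2 with a trend, 0 with centred libraries, 3 with at least 5 input reads, 9 with summed reads, 0 with GC correction and 0 to 34 without 1 library, and tiles 0 to 154, 43 without the shallow library and 154 without replicate 2 of the cKO. With a trend 7 H3K27me3 tiles passed, beside 3377 of 1242015 in the genome. Of H3K9me3 windows in the genome, 4389 of 25459 passed with a trend, 0 with centred libraries and 0 with GC correction. With summed reads 5388 of 25459 passed, and with at least 5 input reads 3327 of 25205, of which 53 lay in the clusters. Fits without 1 library leave 1 library in a group, so their window and tile calls are not read as a result. The causes of the differences between settings were not tested. Kept tiles of the chromosome 2 cluster held a median of 4 input reads, which limits what single tiles can show.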

Other observations

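Tiles that encode zinc finger linkers were followed by genotype, as values with no test. Their H3K9me3 at day 8 differed between cKO and control of equal replicate number by -0.30 and -0.33 on the log2 scale in the chromosome 2 cluster, by -0.31 and -0.46 in the chromosome 4 cluster and by -0.22 and -0.40 in the chromosome 13 cluster. In intergenic tiles of the same clusters the differences were -0.10 and -0.24, 0.08 and -0.04, and -0.11 and -0.15. In zinc finger gene bodies without a linker they were -0.07 and -0.46, -0.13 and -0.18, and -0.27 and -0.14. At day 4 the linker tiles differed by 0.14, -0.25 and -0.12. The linker tiles held 235, 282 and 1167 input reads, and the first of each day 8 pair of values comes from the shallow H3K9me3 library. Whether linker tiles differed from the other tiles in their change was not tested.

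In the stretch of chromosome 13 from 65.5 to 67 Mb, H3K9me3 at day 8 differed by -0.21 and -0.34, and H3K27me3 by -0.37 and -0.54, against -0.09 and -0.05, and -0.17 and -0.31, in the stretch from 67 to 68 Mb. Over the 28 windows of this cluster the control H3K9me3 level had a Spearman rho of -0.648 with the input reads of the window and 0.499 with its number of linkers, as a description over windows that share libraries. In the 23 windows of the chromosome 4 cluster these were -0.187 and 0.475, and in the 14 of the chromosome 2 cluster 0.134 and 0.201. The part of read placement among near-identical copies in these relations was not tested.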
